A study of Mus musculus with 36 samples.

Results

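The change in H2AK119ub1, a single ubiquitin on the tail of histone H2A, after 24 h of Xist induction was compared with the change after 3 h in mouse embryonic stem cells that carry a deletion of the RNA recognition motif (RRM) domain of Spen. The members were chosen by their labels and number 8 of the 36 libraries of the series. They form 4 pairs of an uninduced and an induced library of the same clone: C3 and C4 in the 3 h series, and C3 and D4 in the 24 h series. Clone C3 is the only clone in both series. All cells, WT included, are female (XX), are hybrid between the 129S and Cast strains, and have the promoter of the endogenous Xist gene on the 129S allele exchanged for a TetOn promoter, which doxycycline switches on at 1 µg/mL. The labels describe the deletion in C3 and D4 as leaving a spurious truncated product and the deletion in C4 as a full knockout, so the clones differ in more than the time at which they were sampled. Each clone is a single cell line. WT, used here only for contrast, has 1 pair in the 3 h series and 3 pairs in the 24 h series.

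All libraries of the 3 h series were prepared in parallel on a single day, and the Spen libraries and each WT pair of the 24 h series on separate occasions. The 24 h samples of the Spen clones also held Drosophila cells, whose reads are not analysed here, and the 3 h samples held none. Time of induction, series and occasion therefore cannot be told apart, and each induced library was read against the uninduced library of its own clone and series. Feeder cells had been removed by pre-plating, and their share of the chromatin cannot be read from windows of chromosome X. Spen lies on another chromosome, so the deletion itself was not checked here. Xist RNA was not measured.

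Xist RNA spreads in cis over the X chromosome from which it is made, and silences it. It brings in Polycomb repressive complexes, which add ubiquitin to H2A around it, and in this system the mark is used as a stand-in for where the RNA lies. Spen binds the 5′ repeat of Xist through its RRM domain and is known in mouse as a main factor for silencing the genes of the coated chromosome. The question put to these libraries is which stretches of the chromosome that carry the mark at 3 h still carry it at 24 h when Spen cannot bind.

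The measurements are chromatin immunoprecipitation signals per 250 kb window of chromosome X on mm10, one value per allele (genome 1 and genome 2; which strain is which is not stated). The measure per window is log2 of genome 2 over genome 1. A change is that ratio in the induced library minus that in the uninduced library of the clone, and a centred change is taken after each library was set to 0 at its median window. Fill in, fade and flat below always refer to centred changes, so a window that fades has lost ground against the rest of the chromosome. The allelic windows run from the start of the chromosome to Xist, and 353 were kept. Genome 2 made up 54.5% of the allelic signal uninduced and 64.3% induced in C3 and 48.7% and 58.8% in C4 in the 3 h series. In the 24 h series it was 51.1% and 63.4% in C3 and 51.2% and 63.6% in D4, while the inputs of those clones lay between 50.9% and 51.4%. The summed signal of chromosome X ran from 120203 to 192555 in the 8 libraries, in units whose scaling is not stated. If the smallest value in a file stands for 1 fragment, the median window holds 317 to 806 fragments per allele, a counting error of 3.52% to 5.62% that covers counting only.

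At 24 h the centred change in the Spen clones was lower than at 3 h in windows next to Xist and in gene-rich windows. It was higher in gene-poor windows in the middle of the measured part of the chromosome. In a limma fit of all 24 H2AK119ub1 libraries, with Benjamini-Hochberg (BH) adjustment over the 353 windows, 31 windows (8.78%) had a higher change at 24 h than at 3 h and 40 (11.3%) had a lower one. The mean centred change of the 31 higher windows went from 0.13 at 3 h to 0.69 at 24 h, and that of the 40 lower windows from 0.36 to -0.23. All 71 had the same sign in clone C3 alone, and in all of them both 24 h pairs lay on the same side of both 3 h pairs. Both facts come from the pairs that the test used, so they describe the 71 windows and do not support them. Separation of the pairs was seen over all windows upwards in 103 windows (29.2%) and downwards in 114 (32.3%). Without centring, 15 windows were higher and 0 lower (74 at an unadjusted p under 0.05), and all windows then shifted by a median of 0.23. All 71 windows kept their sign without centring. With each pair divided by its spread over windows, 11 were higher and 29 lower.

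The number of windows past the test depended on some of the libraries. With C3 as the single clone in both series it was 0 higher and 5 lower (65 at an unadjusted p under 0.05), on the assumption that a lone pair varies like the other groups. It was 7 and 15 without C3 at 3 h, 3 and 14 without C4 at 3 h, and 11 and 17 without D4 at 24 h. It was 38 and 35 without C3 at 24 h. Inside the 8 Spen libraries alone it was 10 and 22. After the input ratio of each 24 h pair was taken off, 6 higher and 7 lower windows passed, and all 71 again kept their sign. The log2 signal of genome 2 alone gave 28 and 33 windows. That of genome 1 alone gave 0 and 0 by the same limma test, with 10 windows at an unadjusted p under 0.05.

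**Figure D1:**
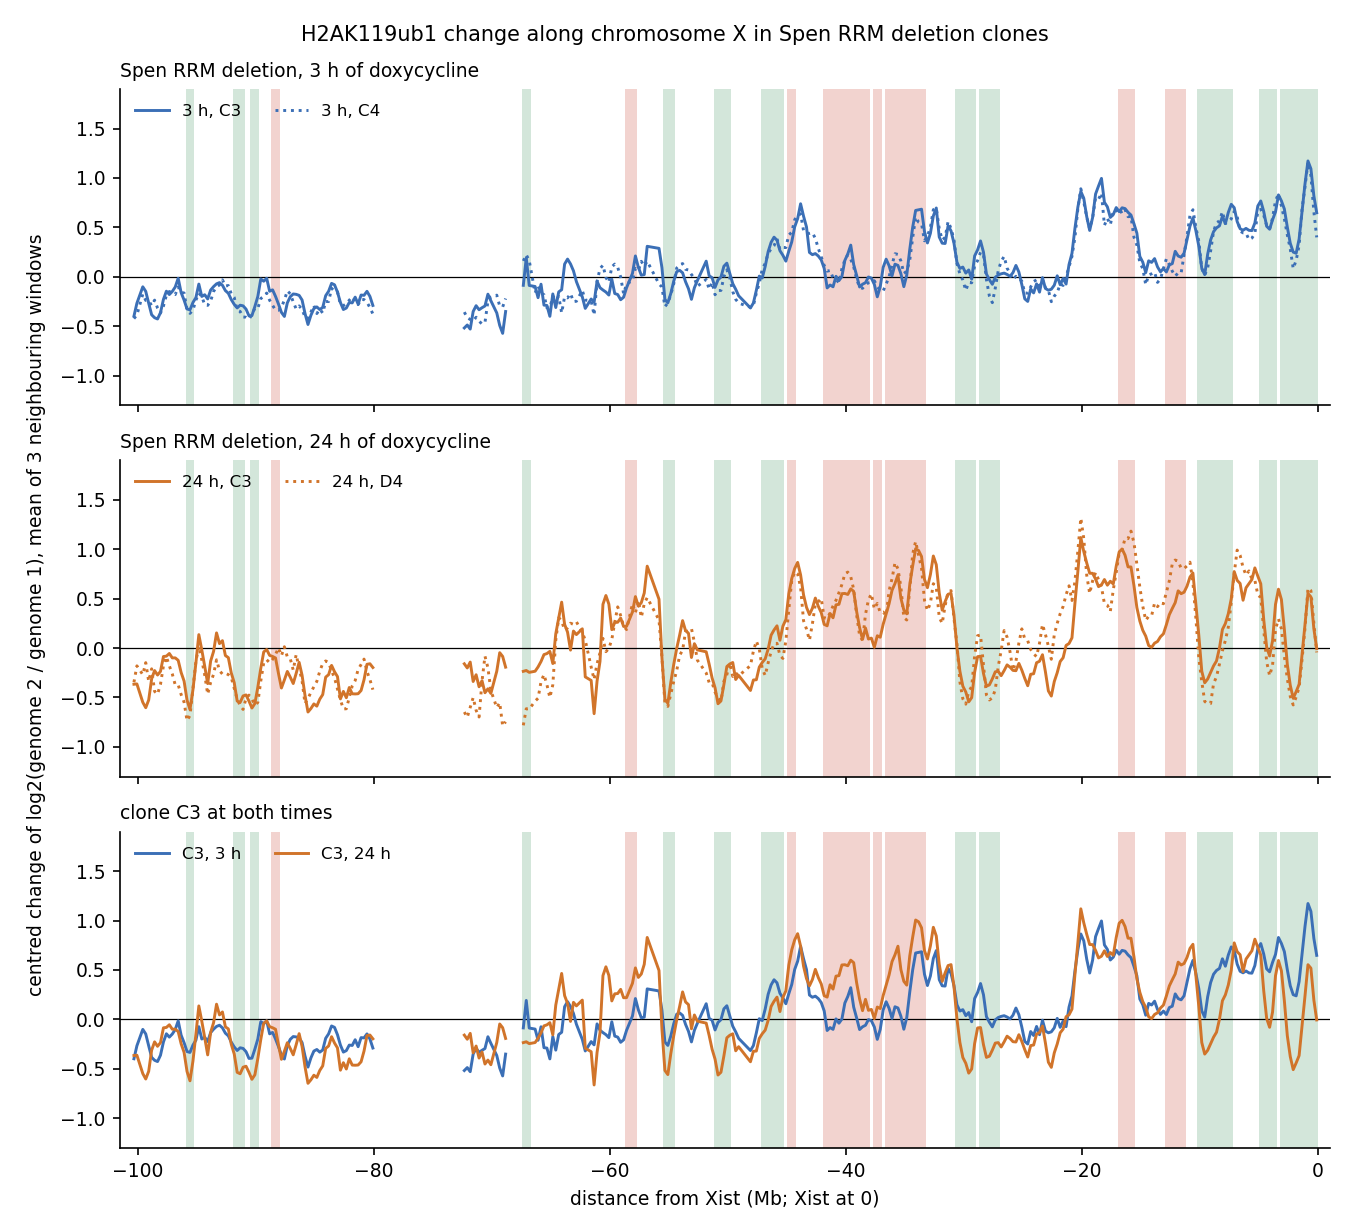
Centred change of log2(genome 2 / genome 1) against distance from Xist in Mb, as the mean of 3 neighbouring windows, for both clones at 3 h (top), both clones at 24 h (middle) and clone C3 at both times (bottom). Green bands mark the 12 stretches that faded and red bands the 8 that filled in; at the end next to Xist both 24 h lines lie below both 3 h lines.

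As a whole, the profile became larger and less graded between the times. The median change without centring was 0.44 in both clones at 3 h, and 0.65 in C3 and 0.68 in D4 at 24 h. The interquartile range of the centred changes was 0.52 and 0.51 at 3 h, and 0.72 and 0.79 at 24 h. Both measures were higher in both 24 h pairs than in either 3 h pair, and no exact permutation test of 2 pairs against 2 can go below p = 0.333. Spearman's rho between the change and the distance from Xist over the windows was -0.69 in C3 and -0.69 in C4 at 3 h, and -0.44 in C3 and -0.50 in D4 at 24 h. The rho with the number of protein-coding genes in a window was -0.02 and -0.05 at 3 h, and -0.27 and -0.40 at 24 h. The rho with gene cover, the percentage of each window inside protein-coding genes, was 0.29 and 0.26 at 3 h, and 0.03 and -0.13 at 24 h. The 24 h pairs did not overlap the 3 h pairs in any of these 5 measures, each with an exact p of 0.333, and neighbouring windows are not independent. In WT the rho with distance was -0.71 in the 1 pair at 3 h and -0.35, -0.33 and -0.39 at 24 h, so the WT values were also closer to 0 at 24 h. The WT rho with gene number was 0.06 at 3 h, and 0.24, 0.24 and 0.16 at 24 h.

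Clones of the same series resembled each other more than C3 resembled itself across series. Over the 353 windows Spearman's rho was 0.85 between C3 and C4 at 3 h and 0.80 between C3 and D4 at 24 h. It was 0.65 between C3 at 3 h and C3 at 24 h, 0.68 between C4 at 3 h and C3 at 24 h, 0.57 between C3 at 3 h and D4 at 24 h, and 0.60 between C4 at 3 h and D4 at 24 h. These are descriptions over windows of 1 chromosome, and libraries of a series share their preparation.

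**Figure D2:**
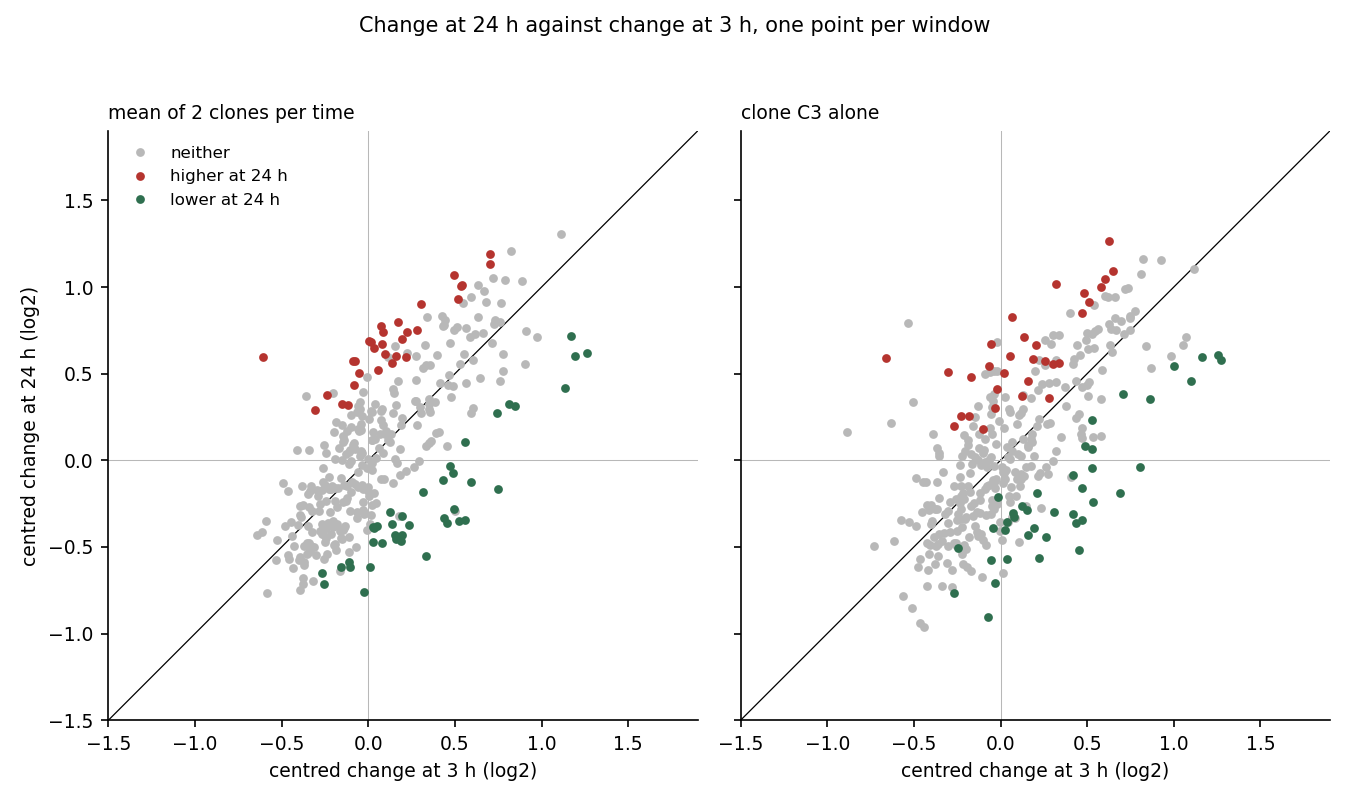
Centred change at 24 h against centred change at 3 h, 1 point per window, for the mean of 2 clones per time (left) and for clone C3 alone (right), with the line of equal change. Red points are the 31 windows higher at 24 h and green points the 40 lower ones; in clone C3 alone they lie on the same sides of the line.

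Most windows that stood above the chromosome's median at 3 h still did so at 24 h. At 3 h, 95 windows (26.9%) were above and 56 (15.9%) below the median change by the limma test, and at 24 h 114 (32.3%) were above and 103 (29.2%) below. Of the 95 high windows, 74 (77.9%) were high again at 24 h, 15 were neither and 6 had turned low. Of the 56 low windows, 40 (71.4%) were low again, 15 were neither and 1 had turned high. Another 39 windows were high only in the 24 h test, and the difference between the times itself passed in 21 of them. Another 57 were low only in the 24 h test, and the difference passed in 19. The 6 windows that went from high to low hold Klhl15 and Apoo, Maged1 and Gspt2, Pja1, Slc7a3 and Snx12, Nhsl2, and Rps4x and Cited1, and were named after their values were seen.

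Stretches were chosen as runs of windows in which both 24 h pairs lie on the same side of both 3 h pairs. The longest stretch that faded ends at Xist itself. It spans chrX:100250001-103483233 with 13 windows and 52 protein-coding genes, and all 13 windows were lower at 24 h by the limma test. Averaged over it, the centred change was 0.65 in C3 and 0.55 in C4 at 3 h. At 24 h it was 0.0021 in C3 and -0.07 in D4. The stretch thus stood well above the median at 3 h and close to it at 24 h in both clones. Without centring the change was 1.07 and 1.00 at 3 h, and 0.65 and 0.58 at 24 h, so the stretch gained genome 2 signal at both times, and less of it at 24 h. In single libraries the centred ratio at 3 h was 0.90 in induced and 0.25 in uninduced C3, and 0.77 in induced and 0.22 in uninduced C4. At 24 h it was 0.03 in induced and 0.03 in uninduced C3, and 0.0008 in induced and 0.08 in uninduced D4. The uninduced libraries of the 3 h series were thus above those of the 24 h series here. Genome 1 signal alone changed by -0.06, 0.11, -0.03 and 0.03 in C3 at 3 h, C4, C3 at 24 h and D4. Genome 2 signal alone changed by 1.01 and 1.11 at 3 h and by 0.61 and 0.62 at 24 h. The centred WT change over the same windows was 0.59 at 3 h, and 0.39, 0.40 and 0.27 at 24 h. WT thus fell as well, with a mean difference of -0.24 against -0.64 in the Spen clones. The difference between Spen and WT passed the test in 2 of the 13 windows.

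The lowest window of that stretch, chrX:101000001-101250000, holds Slc7a3, a transporter of cationic amino acids, and Snx12, a sorting nexin. Its centred changes were 0.45 in C3 and 0.21 in C4 at 3 h, and -0.52 in C3 and -0.59 in D4 at 24 h. All of the 3 h pairs were above the median and all of the 24 h pairs below, a difference of -0.88 ± 0.15 (SE; limma adjusted p = 0.000529). The window of Rps4x, which encodes a protein of the small ribosomal subunit, and of the transcriptional coregulator gene Cited1 went from 0.47 and 0.43 to -0.35 and -0.37 (difference -0.81 ± 0.15, limma adjusted p = 0.00134). The Xist window itself, chrX:103250001-103483233, also holds Tsix, Jpx and the homeobox gene Cdx4. It had centred changes of 0.44 in C3 and 0.03 in C4 at 3 h, and of -0.36 in C3 and -0.39 in D4 at 24 h. Both 24 h pairs were below both 3 h pairs, which themselves stood apart (difference -0.61 ± 0.18, limma adjusted p = 0.0198). In WT the same window went the other way, from 0.004 at 3 h to 0.47, 0.75 and 0.30 at 24 h, and the Spen minus WT difference was -1.11 ± 0.27 (limma adjusted p = 0.0151). That window is cut at the end of Xist in the Spen libraries, and runs further in WT replicates 1 and 2 of the 24 h series. Not every window near Xist dropped to the median: those of Hdac8, Phka1 and the Dmrtc1 genes stood between 1.10 and 1.26 in both clones at 3 h and between 0.38 and 0.84 at 24 h.

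A second fading stretch, chrX:93250001-96250000, has 12 windows and 20 genes, 8 of the windows lower at 24 h by the limma test. Its centred change was 0.41 in C3 and 0.37 in C4 at 3 h, and -0.03 in C3 and -0.21 in D4 at 24 h, with uninduced libraries between -0.03 and 0.02. That the groups do not overlap follows from the choice of stretches. The lowest window of all 353 is here: chrX:95000001-95250000, with Spin4, of the spindlin family of chromatin readers. It went from 0.81 in C3 and 0.69 in C4 to -0.04 in C3 and -0.29 in D4 (difference -0.91 ± 0.13, limma adjusted p = 0.000194). Its neighbour with Klhl15, an adaptor of a ubiquitin ligase, and Apoo, of a mitochondrial membrane complex, went from 0.69 and 0.43 to -0.19 and -0.50 (difference -0.91 ± 0.14). The window of Maged1 and the translation termination factor gene Gspt2 went from 0.47 and 0.52 to -0.16 and -0.41 (difference -0.78 ± 0.14, limma adjusted p = 0.000723). In WT the value over this stretch went from 0.67 at 3 h to 0.32 in each of the 3 pairs at 24 h. In 0 of its 12 windows did the difference between Spen and WT pass the test. Between these stretches, the window of Pja1, which encodes a ubiquitin ligase, went from 0.54 and 0.51 to -0.24 and -0.46 (difference -0.87 ± 0.13, limma adjusted p = 0.000194). WT, with 1 pair at 3 h, fell as well in single windows. Its difference was -0.46 in the Pja1 window, -0.50 in the Klhl15 window and -0.66 in the Maged1 window.

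Fading stretches were also found far from Xist. The farthest of a depth like that next to Xist is chrX:36000001-36750000, 3 windows with 6 genes, among them Lonrf3 and Pgrmc1, at least 66.8 Mb away. It went from 0.19 in C3 and 0.22 in C4 to -0.23 in C3 and -0.61 in D4, a mean difference of -0.63, with 1 window past the test, and was named after its values were seen. Its steepest window, with Lonrf3, had a difference of -0.80 ± 0.35 and did not pass (limma adjusted p = 0.116). In the total signal of both alleles the mean difference over the same windows was -0.15, with 0 past the test. WT went from 0.01 at 3 h to 0.52, 0.21 and 0.13 at 24 h. At chrX:72750001-74500000, 7 windows with 64 genes, the centred change was 0.05 in C3 and -0.01 in C4 at 3 h, and -0.38 in C3 and -0.39 in D4 at 24 h. Here 3 of 7 windows were lower at 24 h by the limma test. WT stood at 0.13 at 3 h and at 0.21, 0.25 and 0.21 at 24 h over the stretch, and the difference from WT passed in 1 of 7 windows. Next to it, chrX:74750001-76500000 with the coagulation factor gene F8 and Dkc1, of the telomerase complex, went from 0.07 and -0.02 to -0.28 and -0.34, with 2 of 7 windows past the test. WT fell about as much there, from 0.27 at 3 h to -0.04, -0.01 and -0.11 at 24 h. The mean difference was -0.32 in WT and -0.34 in the Spen clones. At chrX:56250001-58250000, which includes Fhl1, the values went from 0.23 and 0.23 to 0.04 and -0.14, with 1 of 8 windows past the test. Here too WT fell about as much, from 0.42 at 3 h to 0.13, 0.09 and 0.16 at 24 h. The mean difference was -0.29 in WT and -0.28 in the Spen clones.

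The longest stretches that filled in lie between 33.3 and 41.8 Mb from Xist and hold few genes. The first, chrX:61500001-65500000, has 16 windows, 11 of them without a protein-coding gene, and genes cover 0.76% of it on average. Its centred change was 0.02 in C3 and 0.03 in C4 at 3 h, and 0.37 in C3 and 0.47 in D4 at 24 h. The groups cannot overlap by the choice of stretches, and 8 of the 16 windows were higher at 24 h by the limma test. Without centring the change was 0.43 and 0.47 at 3 h, and 1.02 and 1.13 at 24 h, with genome 1 alone at 0.0011 and 0.36, and at -0.01 and 0.02. In single libraries the centred ratio at 24 h was 0.28 in induced and -0.09 in uninduced C3, and 0.42 and -0.04 in D4. At 3 h it was -0.01 in induced and -0.03 in uninduced C3, and -0.0036 and -0.03 in C4. WT stood at -0.17 at 3 h and at -0.24, -0.25 and -0.23 at 24 h. The steepest window, chrX:63000001-63250000, holds no protein-coding gene and went from 0.05 and -0.02 to 0.60 and 0.77 (difference 0.67 ± 0.14, limma adjusted p = 0.00286). Among the genes of the stretch, the window of Slitrk4, a neuronal membrane protein gene, went from -0.17 and 0.0003 to 0.48 and 0.39 (difference 0.52 ± 0.12).

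The next stretch, chrX:66750001-70250000, has 14 windows with 10 genes, among them Fmr1, which encodes an RNA-binding protein of synapses, and Aff2, of a transcription elongation family. It went from 0.29 in C3 and 0.25 in C4 to 0.67 in C3 and 0.69 in D4, and 5 windows were higher at 24 h by the limma test. WT went from 0.24 to -0.10, -0.02 and 0.13. The steepest window, chrX:68000001-68250000 with no protein-coding gene, had centred changes of -0.06 in C3 and 0.07 in C4 at 3 h, and 0.67 in C3 and 0.70 in D4 at 24 h. The Spen pairs at 24 h were above the 3 h pairs, a difference of 0.68 ± 0.19 (limma adjusted p = 0.0175). In WT the same window went from 0.19 to -0.41, -0.39 and -0.05, and the Spen minus WT difference was 1.16 ± 0.29 (limma adjusted p = 0.0179). The difference between Spen and WT passed in 5 windows of this stretch and in 5 of the stretch before it. Both were chosen by their values in the Spen clones, so these counts are not independent of the choice.

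Nearer to Xist, fading and filling stretches stood beside each other. At chrX:90500001-92250000, 11.3 to 12.8 Mb from Xist, the centred change went from 0.16 in C3 and 0.07 in C4 to 0.45 in C3 and 0.76 in D4, and 5 of 7 windows were higher at 24 h by the limma test. This stretch holds Mageb1, Mageb2 and Mageb5, of a gene family expressed mainly in the germline. The Mageb5 window went from 0.13 and 0.01 to 0.71 and 0.83 (difference 0.70 ± 0.17, limma adjusted p = 0.00674). At chrX:86500001-88000000, mostly inside the long neural gene Il1rapl1, the change went from 0.66 and 0.62 to 0.91 and 1.09, and 2 of 6 windows passed. The fading stretch with Klhl15 and Spin4 begins 1 Mb past the end of the Mageb stretch. A single window, chrX:39000001-39250000, had the greatest difference of the 353, going from -0.66 in C3 and -0.56 in C4 to 0.59 in C3 and 0.60 in D4 (difference 1.20 ± 0.32, limma adjusted p = 0.0149). With the inputs taken off, that difference was 0.29 (limma adjusted p = 0.773). It was 0.97 with 5% and 1.28 with 0.1% of the median window added to each allele. The stricter filter, at 25% of the median window, removes this window. The windows chrX:44000001-44250000 and chrX:46500001-46750000, also with no gene, had differences of 0.66 ± 0.23 and 0.66 ± 0.17. With the inputs taken off, they were 0.17 and 0.85. In WT the differences of these windows were 0.59 and 0.36.

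**Figure D3:**
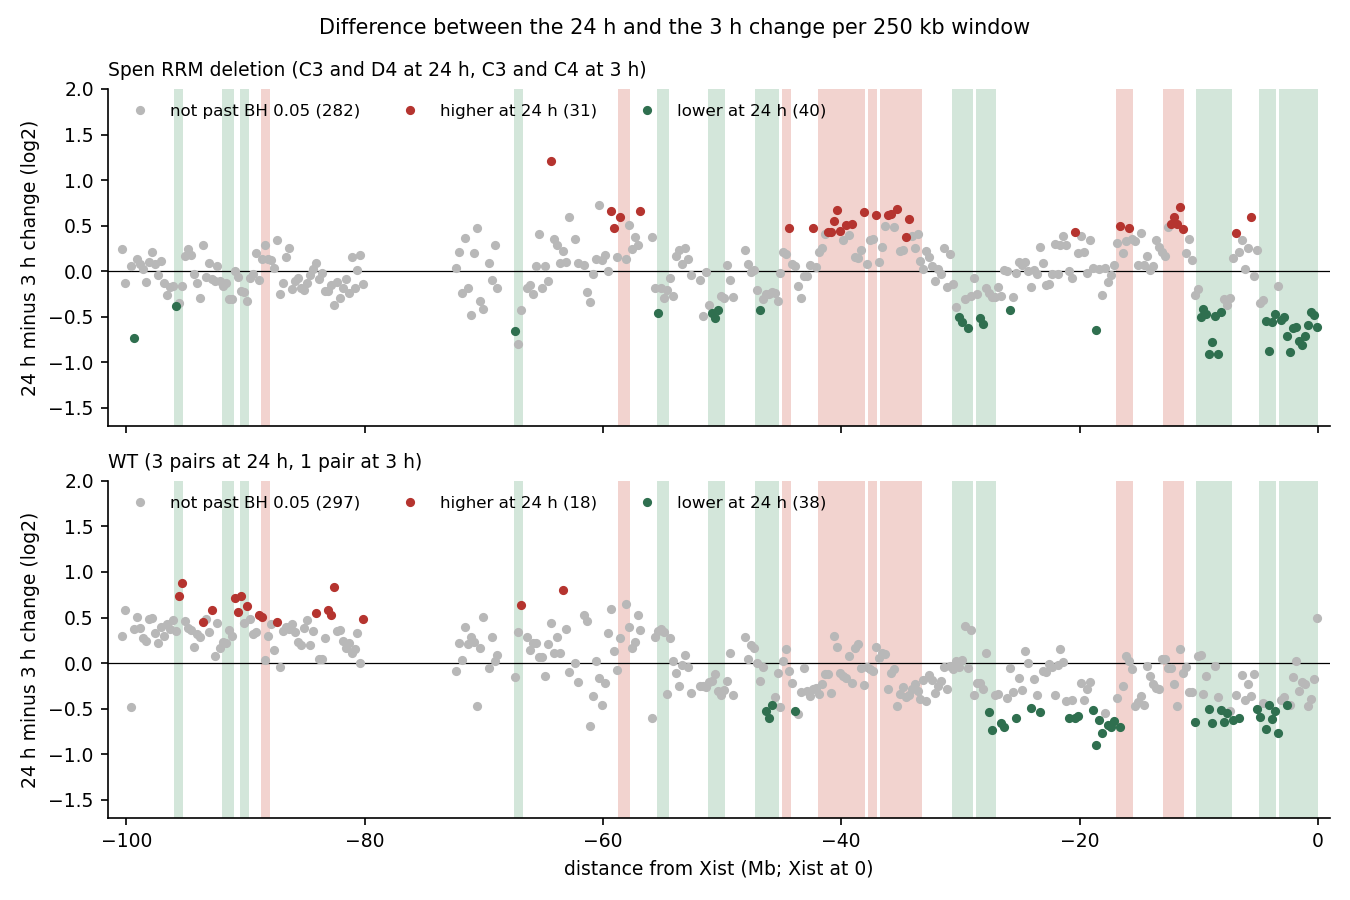
Difference between the 24 h and the 3 h centred change per window against distance from Xist in Mb, for the Spen RRM deletion (top) and WT (bottom). Coloured points passed BH 0.05, and green and red bands mark the fading and filling stretches of the Spen clones; within 5 Mb of Xist the Spen points are below 0, and between 30 and 40 Mb most are above it.

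Flat windows were common. In 143 windows (40.5%) the difference was under 0.25 in size in the mean and in C3, and 13 runs of at least 3 such windows were found, with 59 windows in all. Flat is set by size and the stretches by separation of the pairs, so a window can be in both. The flat run chrX:64500001-65250000 lies inside the filling stretch chrX:61500001-65500000. Those at chrX:72250001-73000000 and chrX:10500001-12000000 each share windows with a fading stretch. The longest, chrX:4250001-6250000, has 8 windows with Btbd35f genes, a multicopy family of the germline, and Nudt10. Its centred change was -0.31 in C3 and -0.28 in C4 at 3 h, and -0.22 in C3 and -0.26 in D4 at 24 h, so it stayed low at both times. WT went from -0.92 to -0.44, -0.51 and -0.70 over the same windows. A like pattern was seen at chrX:16750001-18250000, with the monoamine oxidase gene Maob and the histone demethylase gene Kdm6a. There the Spen values were -0.34, -0.36, -0.40 and -0.36 in C3 and C4 at 3 h and C3 and D4 at 24 h, while WT went from -0.57 to -0.30, -0.19 and -0.23. At chrX:10500001-12000000, with the membrane protein gene Tspan7, they were -0.21, -0.15, -0.21 and -0.33. At chrX:78250001-80000000, near Prrg1, they were -0.16, -0.09, -0.25 and 0.02, and there D4 stood apart from C3.

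By distance, 17 of the 20 windows within 5 Mb of Xist were lower at 24 h and 0 were higher by the limma test. Their mean centred change went from 0.65 and 0.59 to 0.10 and -0.02. In WT it fell as well, from 0.63 at 3 h to 0.30, 0.29 and 0.20 at 24 h. Between 5 and 10 Mb 8 of 20 were lower and 2 higher, and between 10 and 20 Mb 1 of 40 was lower and 7 were higher. The mean centred difference between 5 and 10 Mb was -0.19 in the Spen clones and -0.38 in WT. The order was not smooth: from 20 to 30 Mb 5 of 40 were lower and 1 higher. There the mean change was 0.06 and 0.03 at 3 h, and -0.16 in C3 and 0.07 in D4 at 24 h. Between 30 and 40 Mb 9 of 40 were higher and 1 lower, with a mean change of 0.22 and 0.20 at 3 h and 0.44 and 0.47 at 24 h. From 40 to 50 Mb 7 of 37 were higher and 1 lower, and from 50 to 60 Mb 4 of 34 were higher and 4 lower. Between 80 and 90 Mb 0 of 40 windows passed in either direction (-0.23 and -0.27 at 3 h, -0.33 and -0.27 at 24 h), and beyond 90 Mb 2 of 41 were lower. In WT, between 80 and 90 Mb, the centred change went from -0.49 at 3 h to -0.18, -0.15 and -0.17 at 24 h. In the fit as a whole, 18 windows (5.1%) were higher and 38 (10.8%) lower at 24 h in WT, whose 3 h value rests on 1 pair. The difference between the times departed from that in WT in 5 of the 40 windows lower in Spen and in 16 of the 31 higher ones. Over all windows it departed in 52, with 29 (8.22%) higher and 23 (6.52%) lower in the Spen clones by the limma test. Both comparisons use the Spen libraries. Without centring that count was 2 and 0 (83 at an unadjusted p under 0.05), and with C3 alone 6 and 8. It was 12 and 10 without WT replicate 1 or without WT replicate 2, 5 and 4 without C3 at 3 h, 6 and 8 without C4 at 3 h, and 16 and 12 without D4. The WT count itself was 11 and 19 without WT replicate 1, and 9 and 21 without WT replicate 2.

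By gene number, the 125 windows without a protein-coding gene went on average from 0.07 in C3 and 0.05 in C4 to 0.18 in C3 and 0.26 in D4, and 19 were higher and 4 lower at 24 h by the limma test. The 160 windows with 1 or 2 genes went from 0.11 and 0.09 to 0.07 and 0.05, with 11 higher and 17 lower. The 55 windows with 3 to 7 genes went from 0.08 and 0.04 to -0.13 and -0.19, with 1 higher and 16 lower. The 13 windows with 8 or more genes went from -0.16 and -0.13 to -0.31 and -0.48, with 0 higher and 3 lower. Without centring the mean difference in the Spen clones was 0.38, 0.18, 0.0039 and -0.03 in these classes, from fewest genes to most. The centred WT difference was 0.24 in the last class and -0.06 in the first.

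The windows that faded also differ in the promoters they hold, shown here by the promoter richest in CpG in each of the 2 lowest and of the 2 highest windows with a promoter entry. The sequences are from RefSeq on GRCm38.p6, 250 bases before to 50 after the gene start, 5′ to 3′ on the strand of the gene, with CpG in capitals. Spin4 lies at chrX:95026633-95026932 on the minus strand with 12 CpG, and Fam90a1b at chrX:94366728-94367027 on the minus strand with 27. Gm5071 lies at chrX:91932931-91933230 on the minus strand with 4, and Gm1140 at chrX:67693513-67693812 on the minus strand with 7.
Spin4: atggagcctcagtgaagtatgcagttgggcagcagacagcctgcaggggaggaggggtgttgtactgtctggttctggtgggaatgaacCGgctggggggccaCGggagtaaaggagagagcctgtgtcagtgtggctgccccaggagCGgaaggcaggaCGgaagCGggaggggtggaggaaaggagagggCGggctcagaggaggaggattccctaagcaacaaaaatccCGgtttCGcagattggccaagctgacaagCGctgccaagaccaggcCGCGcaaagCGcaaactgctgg
Fam90a1b: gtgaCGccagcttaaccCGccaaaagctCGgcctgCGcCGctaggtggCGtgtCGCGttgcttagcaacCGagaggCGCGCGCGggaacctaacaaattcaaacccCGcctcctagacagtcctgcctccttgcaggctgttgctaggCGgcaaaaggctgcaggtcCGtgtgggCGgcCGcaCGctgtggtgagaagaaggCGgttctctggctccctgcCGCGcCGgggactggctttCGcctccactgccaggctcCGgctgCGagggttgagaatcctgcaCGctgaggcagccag
Gm5071: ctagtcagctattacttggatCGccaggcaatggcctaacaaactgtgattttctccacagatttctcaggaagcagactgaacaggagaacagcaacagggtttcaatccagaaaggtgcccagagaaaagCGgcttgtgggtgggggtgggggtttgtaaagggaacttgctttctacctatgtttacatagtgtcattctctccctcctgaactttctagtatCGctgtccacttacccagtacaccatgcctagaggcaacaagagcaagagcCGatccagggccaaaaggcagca
Gm1140: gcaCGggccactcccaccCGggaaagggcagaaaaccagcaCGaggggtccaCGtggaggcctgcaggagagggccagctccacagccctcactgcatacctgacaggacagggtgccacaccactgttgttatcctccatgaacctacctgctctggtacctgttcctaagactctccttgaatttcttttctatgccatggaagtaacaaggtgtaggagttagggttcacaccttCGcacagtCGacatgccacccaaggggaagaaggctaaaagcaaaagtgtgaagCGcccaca
Of 127 RefSeq promoters in the 40 fading windows, 72 (56.7%) held at least 10 CpG, and of 18 in the 31 filling windows 1 (5.56%) did. In windows that passed in neither direction the share was 43.7%, and among all 960 promoters of protein-coding genes on X it was 44.4%. The fading windows hold more genes than the filling ones, and a 250 kb window does not measure the mark at a promoter.

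The gene lists describe the same windows by what their genes do. Windows are shared by all genes in them and by several lists, and were counted once per list. List counts are read against the 8.78% of all windows that were higher and the 11.3% that were lower. Medians of the lists are given first centred and then without centring, where the median of all windows is 0.23. Housekeeping genes, used by nearly all cells, occupied 23 windows, of which 7 were lower and 0 higher at 24 h by the limma test. The list's median difference was -0.23, against 0.01 over all 353 windows, and -0.01 without centring. Their median centred change was -0.17 in C3 and -0.27 in C4 at 3 h, and -0.35 in C3 and -0.50 in D4 at 24 h. In WT the median difference of the same windows was 0.28, with 6 higher and 0 lower. The Dkc1 window went from 0.15 and 0.24 to -0.29 and -0.35 (difference -0.52 ± 0.12).

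Genes of chromatin regulators occupied 15 windows, with 6 lower and 0 higher and a median difference of -0.31, or -0.09 without centring. Their medians were -0.17 and -0.30 at 3 h and -0.57 and -0.50 at 24 h. The window of Hdac8, which encodes a histone deacetylase, fell by 0.71 ± 0.17, from 1.10 and 1.17 to 0.46 and 0.38. That of Med12, of the Mediator complex, Zmym3 and Nono went from 0.04 and -0.01 to -0.57 and -0.66 (difference -0.63 ± 0.14). That of Ogt, which attaches O-GlcNAc to proteins, and Taf1, of the general transcription factor TFIID, went from 0.26 and 0.05 to -0.44 and -0.47 (difference -0.61 ± 0.13). In the Ogt window the difference from WT also passed (-0.63, limma adjusted p = 0.0433). The median difference of the 15 windows in WT was 0.37, with 4 higher and 0 lower.

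Genes known to escape X inactivation in mouse occupied 4 windows. Their median was -0.35 in C3 and -0.32 in C4 at 3 h, and -0.48 in C3 and -0.64 in D4 at 24 h, so they stood below the chromosome's median at both times. Their median difference was -0.21, and it changed sign to 0.01 without centring. Only the window of Eif2s3x, a translation initiation factor gene, was lower at 24 h by the limma test, going from -0.04 and -0.17 to -0.39 and -0.78 (difference -0.47 ± 0.14, adjusted p = 0.0191). Ddx3x, an RNA helicase gene, went from -0.37 and -0.37 to -0.49 and -0.71. Kdm6a went from -0.56 and -0.31 to -0.78 and -0.46. Utp14a, which encodes a ribosome assembly factor, went from -0.34 and -0.34 to -0.47 and -0.57. The differences of these 3 did not pass the test.

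Developmental transcription factor genes occupied 8 windows, with 2 lower, those of Cdx4 and Foxp3, and 0 higher, and a median difference of -0.26, or -0.04 without centring. The Foxp3 window went from -0.25 and -0.29 to -0.51 and -0.79. Sox3 had 0.22, 0.32, 0.41 and 0.28 in C3 and C4 at 3 h and C3 and D4 at 24 h, and Nr0b1 0.75, 0.68, 0.83 and 0.53. Germline multicopy genes occupied 44 windows, with 4 higher and 2 lower and a median difference of 0.06, or 0.28 without centring, so neither its counts nor its median set it apart from all windows. The 4 include those of Mageb2 (0.59 ± 0.16) and Mageb5. The lower window of Btbd35f3 went from -0.07 and 0.02 to -0.90 and -0.62, and its difference of -0.74 was -0.15 with the inputs taken off. Long neural and muscle genes, each placed only in the window of its midpoint, occupied 11 windows, with 0 higher and 1 lower, that of Nlgn3. Their median was 0.32 and 0.23 at 3 h, and 0.51 and 0.40 at 24 h, so they stood above the chromosome's median at both times. Their median difference was -0.02, and it changed sign to 0.20 without centring. Aff2 had 0.81, 0.76, 1.07 and 1.01, and Il1rapl1 0.70, 0.74, 0.80 and 1.30. The differences of these midpoint windows did not pass the test. In the filling stretch mostly inside Il1rapl1, described above, 2 of 6 windows passed. The X-inactivation centre occupied 2 windows, and both were lower, with a median difference of -0.55, or -0.33 without centring.

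**Figure D4:**
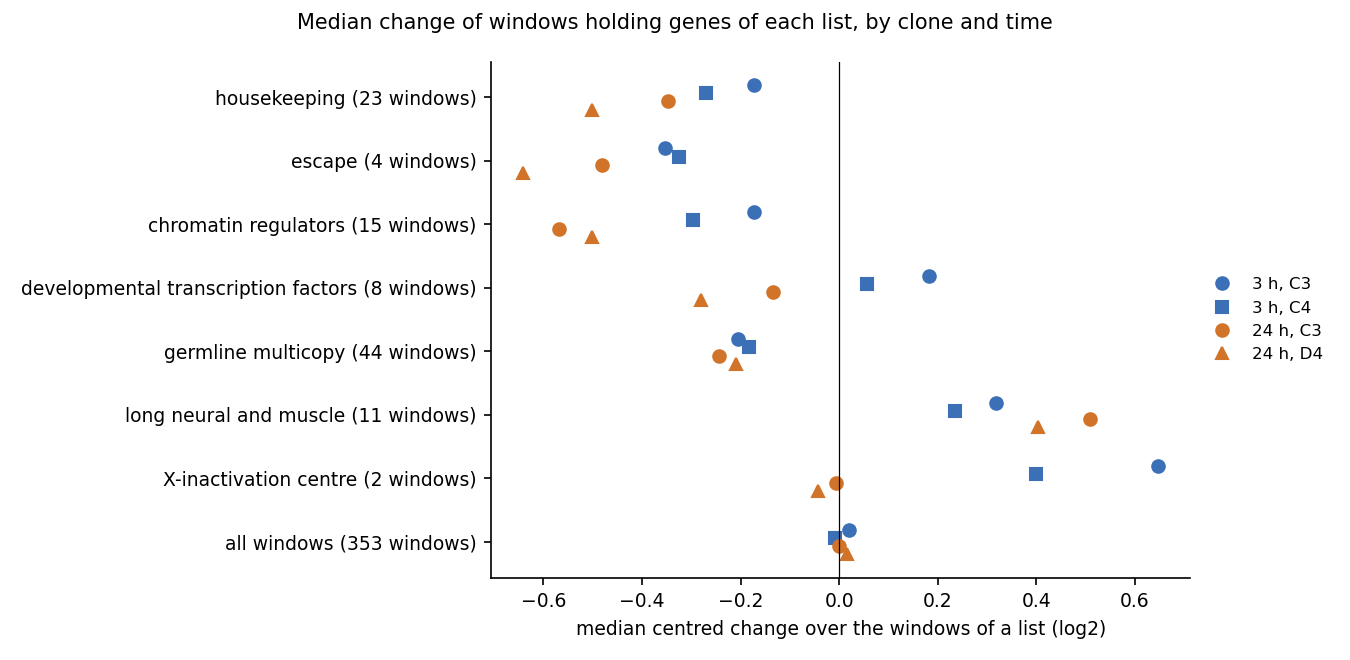
Median centred change over the windows holding genes of each list, 1 symbol per clone and time. The housekeeping, escape and chromatin regulator lists lie left of 0 at 3 h and further left at 24 h; the long neural and muscle list lies right of 0 in all 4 pairs, all relative to the chromosome's median, and without centring the first 3 lists have positive 24 h medians (0.20, 0.06 and 0.08).

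The allelic windows stop at Xist, so the chromosome past Xist was read in the total signal of both alleles. In it 24 of 669 windows (3.59%) were higher and 32 (4.78%) lower at 24 h by the limma test. Of the 267 windows past Xist, 14 (5.24%) were higher and 14 (5.24%) lower. In WT, whose 3 h value rests on 1 pair, 76 of the 669 windows were higher and 94 lower at 24 h. The fading stretch was seen on both sides of Xist, at chrX:98500001-106250000 with 31 windows, 17 of them lower. Its steepest window holds Rlim, which encodes a ubiquitin ligase known in mouse to activate Xist. There the centred change of the total signal was 0.92 in C3 and 0.78 in C4 at 3 h, and 0.02 in C3 and 0.07 in D4 at 24 h (difference -0.80 ± 0.15, limma adjusted p = 0.00188). Both 24 h pairs were below both 3 h pairs. The WT difference in that window was -0.20. Over the 31 windows the mean difference was -0.41 in the Spen clones, and WT went from 0.45 at 3 h to 0.17, 0.18 and 0.14 at 24 h. On the far side, chrX:144500001-150500000 filled in over 24 windows, 12 of them higher, among them those of the serotonin receptor gene Htr2c, Amot and Lrch2. Its change went from 0.07 in C3 and 0.04 in C4 to 0.30 in C3 and 0.45 in D4, while WT went from 0.09 to -0.04, -0.14 and 0.02. The stretch chrX:151250001-153750000, with Huwe1, Smc1a and the escape gene Kdm5c, faded from -0.18 and -0.19 to -0.45 and -0.43, with 3 of 10 windows past the test, and WT stood at 0.25 and at 0.28, 0.30 and 0.30. In the total signal the count also depended on the libraries: it was 0 and 4 without C3 at 3 h, 10 and 25 without C4 at 3 h, 2 and 12 without D4, 40 and 32 without C3 at 24 h, and 0 and 10 with C3 as the single clone. With a replicate block for the clone it was 46 and 59.

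**Figure D5:**
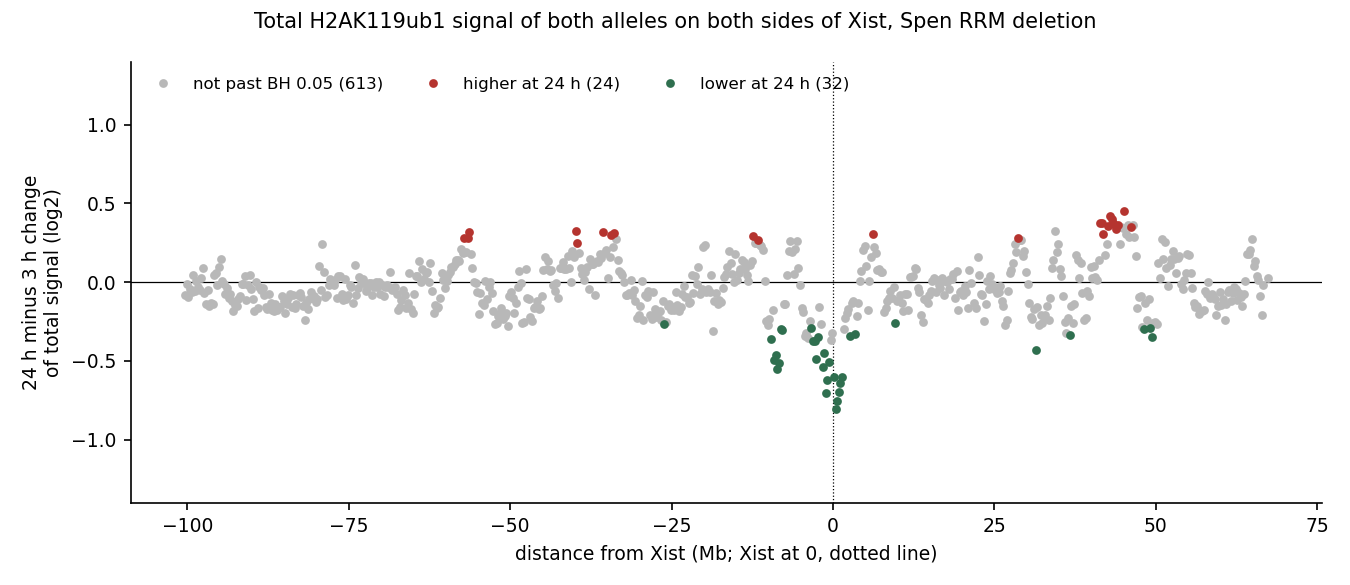
Difference between the 24 h and the 3 h change of the total signal of both alleles per window, against distance from Xist in Mb, in the Spen RRM deletion clones. Green points were lower and red points higher at 24 h; the lowest points lie just past Xist, down to -0.80, and a run of red points lies past 41 Mb on the far side.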

How the data were processed

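H2AK119ub1 native chromatin immunoprecipitation libraries (24) and inputs (12) were used. Per the submitters' processing notes, the tools were Bowtie2 2.2.6, bedtools and Picard and the build mm10; what each did is not given. The authors deposited a normalized coverage signal per 250 kb window of chromosome X, for all reads (685 windows) and for each allele (414 windows); their scaling is not given in the sources used here, and it cancels within a library in the allelic ratio, not in the total signal. For each window, log2 of genome 2 over genome 1 was computed after 1% of the median window was added to each allele, and each library was centred on its median. Windows were kept where both alleles averaged 10% of the median window over all libraries (353, and 669 of the total signal). Changes were tested with limma 3.58.1 in R 4.3.3 in 1 fit of all 24 libraries in 12 groups (12 residual degrees of freedom), so that the clones share an estimate of the spread, two-sided, with Benjamini-Hochberg adjustment at 0.05. The 24 h libraries of the SPOC mutant may have their states exchanged in the titles; they enter the spread only. The fit was checked on simulated data. For shape measures, exact permutation tests were two-sided (Python 3.11.15, scipy 1.17.1, numpy 2.4.6, pandas 2.3.3, matplotlib 3.10.9).

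Stretches are runs of at least 3 kept windows, no more than 500 kb apart, in which both 24 h pairs lie above (fill in) or below (fade) both 3 h pairs; flat runs differ by less than 0.25 in the mean and in C3. Named are the 6 highest and 6 lowest windows past the test with the same sign in C3, the longest stretches of each kind with their steepest window, and the windows of greatest difference in each of 7 gene lists. Other windows named were chosen after their values were seen. Some items that this rule would name are not reported here. The members, lists and stretches were chosen with earlier results of these data known, and stretches were chosen by the values shown for them. Genes were placed by their midpoint in RefSeq GRCm38.p6, with 966 protein-coding genes on X and 580 in kept windows; Tsix and Xist overlap, and windows hold no strand. Groups came from the labels. A clone label names a cell line and so pairs the libraries of a series. The deviations of the uninduced and induced libraries from their group means correlated at 0.16 at 3 h and -0.000815 at 24 h over the windows. The planned fit has no replicate block. Whether clones were cultured separately is not stated beyond their names, so p-values measure the spread between these libraries. Alternatives are given in the closing section.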

Additional observations from a re-analysis of the deposited data

Results flagged for a closer look

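The change in the Spen clones differed between 24 h and 3 h, by the contrast itself, in 31 windows that were higher and 40 that were lower at 24 h (limma, BH 0.05, 353 windows, 2 pairs per time). Time, series and occasion cannot be told apart in these counts.

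The difference between the times departed from the one in WT in 29 windows that were higher and 23 that were lower in the Spen clones, tested as the difference of differences in the same fit. WT at 3 h is 1 pair, and its part in these counts was not tested.

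Of the 12 windows named for the size of their difference, 1 also departed from WT: chrX:68000001-68250000, without a protein-coding gene, where Spen minus WT was 1.157 on the log2 scale (limma adjusted p = 0.0179), with both Spen pairs at 24 h above both at 3 h, and all 3 WT pairs at 24 h below the WT pair at 3 h.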

How the results depend on the processing

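None of the 12 named windows reversed its sign under the alternatives run. Medians of gene lists did: without centring the 24 h minus 3 h median of the escape list went from -0.21 to 0.01 and that of the long neural and muscle list from -0.02 to 0.20. The 24 h medians of the housekeeping, chromatin regulator and escape lists went from -0.46, -0.57 and -0.59 to 0.20, 0.08 and 0.06. The Kdm6a window, not past the test, went from -0.18 to 0.12 with the inputs taken off. Over the 12 named windows and their alternatives, 154 values stayed past the test and 37 did not, most often with clone C3 alone (8), the inputs taken off (7) or no centring (6). The counts moved by over 1.5 times as follows, higher before lower; the causes were not tested. Without centring, the 24 h minus 3 h windows of the Spen clones were 15 and 0, those of the 3 h change 182 and 0, of the 24 h change 245 and 0, of WT 0 and 0 (50 at an unadjusted p under 0.05) and of Spen minus WT 2 and 0. Divided by the spread over windows, they were 11 higher for the Spen clones, 0 and 0 for WT (63 unadjusted) and 4 and 6 for Spen minus WT. On the Spen libraries alone the difference gave 10 and 22. With clone C3 alone it gave 0 and 5 (65 unadjusted), Spen minus WT 6 and 8, 3 h windows lower 18 and 24 h windows lower 58. With the inputs taken off (none exist at 3 h) it gave 6 and 7, WT 0 and 2, Spen minus WT 2 and 0, and 3 h windows lower 13. Genome 2 alone gave 147 windows lower at 3 h, 176 lower at 24 h, 56 higher in WT and 43 lower in Spen minus WT. With no filter Spen minus WT gave 13 lower. Leaving out 1 pair gave 3 to 38 higher and 14 to 35 lower for the difference, 66 to 71 and 11 to 12 for 3 h, 98 to 103 and 66 to 86 for 24 h, 9 to 12 and 19 to 28 for WT, 5 to 36 and 4 to 26 for Spen minus WT, and 0 to 40 and 4 to 32 for the total signal. With the replicate block the difference gave 37 and 46, and the total signal 46 and 59; with C3 alone the total signal gave 0 and 10. Chosen after seeing the data were no centring with the replicate block, which gave 52 and 6 for the difference, 228 and 0 at 3 h, 267 and 0 at 24 h, 0 and 1 in WT and 57 and 1 for Spen minus WT, and genome 1 alone, which gave 0 and 0 for each of these comparisons. Other added amounts and the stricter filter left all counts within 1.5 times.

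The limits are these: 2 clones per time with only C3 in both, a clone at 3 h with another description of its deletion, series prepared apart, no input at 3 h, an unstated scaling, and windows of 250 kb with 317 to 806 fragments per allele in the median window.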
